A study of Mus musculus with 16 samples.

Results

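The genes described here were 10 genes of antigen presentation by the major histocompatibility complex (MHC) in mouse brain. They were taken by symbol from the 21804 genes of the count table, and all 10 were found. The class I members were B2m, H2-K1, H2-D1, Tap1, Tapbp, Psmb8 and Psmb9, 7 genes in all. The class II members were the other 3 genes, Cd74, H2-Aa and H2-Ab1. All 10 passed the filter on low counts in each of the 6 comparisons made.

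MHC class I molecules present peptides from inside the cell to CD8+ T cells, and almost every nucleated cell can make them. A peptide cut by the proteasome is carried into the endoplasmic reticulum by the TAP transporter and loaded, with the help of tapasin, onto a heavy chain paired with beta 2-microglobulin. MHC class II molecules present peptides taken up from outside to CD4+ T cells, and are mostly made by professional antigen presenting cells. In brain parenchyma both are low at rest. Microglia, the resident macrophages of the brain, endothelial cells and border macrophages can raise them, and interferon gamma is their classic inducer.

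RNA was sequenced from the brains of 8 C57BL/6 mice aged 4 months, and each mouse gave 1 cortex and 1 thalamus library. The controls were Pdgfb ret/wt, with 1 retention allele of the platelet growth factor gene Pdgfb, and the other 4 mice were Pdgfb ret/ret, with the allele on both chromosomes. Every animal thus carried at least 1 ret allele. The allele lacks the motif that keeps PDGF-B close to the vessel wall, and it is a germline allele, active in all cells that make PDGF-B. In ret/ret mice the thalamus piece was a vessel calcification, found by its autofluorescence and cut out, while in controls it was tissue of the matching place. Genotype and the way the piece was chosen therefore cannot be told apart in thalamus. The cortex does not tend to calcify, per the labels, and was taken from both genotypes. The 4 groups were ret/wt cortex, ret/ret cortex, ret/wt thalamus and ret/ret thalamus, with n = 4 animals each, and replicates 1 to 4 of ret/wt and of ret/ret are different animals.

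Libraries held 13415391 to 29135064 counts. Levels are given as CPM, the count of a gene scaled to a common library size, after TMM scaling over the 16 libraries, and 3 counts, the level a zero cannot be told from, corresponded to 0.11 to 0.235 CPM. Per library, the lowest count of a member was 12, for H2-Ab1 and for Psmb9 in ret/wt cortex. Summed cortical neuron markers ran from 780.3 to 2613 CPM in cortex and from 103.5 to 445.7 CPM in thalamus, and the regions did not overlap. Summed thalamic neuron markers were 603.1 to 3690 CPM in thalamus and 197.9 to 767.8 CPM in cortex, so that these overlapped. Some cortex libraries held genes of other places: ret/ret cortex replicate 2 had 5879 CPM and ret/wt cortex replicate 3 had 2600 CPM of 12 cerebellar genes, and ret/wt cortex replicate 4 had 1170 CPM of 10 choroid plexus genes. In thalamus, ret/ret replicate 1 and ret/wt replicate 4 held the most meningeal and fibroblast RNA, at 604.9 and 462.3 CPM over 10 marker genes, against 70.1 to 318.8 CPM in the other 6. Pdgfb itself was not analysed here.

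Apart from B2m, which lies at chr2:122147686-122153083, and Cd74, the members lie in the MHC on chromosome 17 (GENCODE M21 gene models, GRCm38). Tapbp starts the row at chr17:33915899-33929292 and H2-K1 follows at chr17:33996017-34000347. Psmb9 (chr17:34181987-34187764) and Tap1 (chr17:34187553-34197225) sit head to head, and Psmb8 follows at chr17:34197721-34201454. The class II genes H2-Ab1 (chr17:34257689-34269419) and H2-Aa (chr17:34282744-34287823) come next, and H2-D1 at chr17:35262730-35267499 closes the row.

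The 5 stretches of DNA before the start site that are printed here show what class I members and the class II member H2-Aa share in sequence. They come from RefSeq promoter windows on GRCm38.p6 and end at the base before the RefSeq start, read in the direction of the gene. Capitals mark matches to 6 short motifs known from MHC promoters: the IRF core AANNGAAA, the ISRE core (GAAA, any 2 bases, GAAA), the GAS element TTCNNNGAA, the kappa B site, the X2 half-site TGACG and the Y box CCAAT, each on either strand. The B2m stretch is chr2:122147437-122147686 on the plus strand, H2-K1 is chr17:34000348-34000597 on the minus strand and H2-D1 is chr17:35262844-35263093 on the plus strand. The H2-Aa stretch is chr17:34287824-34288073 on the minus strand. The 225 bases between the RefSeq starts of Tap1 and Psmb9, chr17:34187331-34187555, are given on the Tap1 strand. In the GENCODE M21 models the 2 genes overlap at their starts, and this stretch lies within Psmb9.
B2m: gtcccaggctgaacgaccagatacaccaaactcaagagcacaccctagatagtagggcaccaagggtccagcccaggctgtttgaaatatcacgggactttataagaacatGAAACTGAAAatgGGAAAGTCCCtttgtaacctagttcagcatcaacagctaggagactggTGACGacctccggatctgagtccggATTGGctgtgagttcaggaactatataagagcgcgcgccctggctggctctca
H2-K1: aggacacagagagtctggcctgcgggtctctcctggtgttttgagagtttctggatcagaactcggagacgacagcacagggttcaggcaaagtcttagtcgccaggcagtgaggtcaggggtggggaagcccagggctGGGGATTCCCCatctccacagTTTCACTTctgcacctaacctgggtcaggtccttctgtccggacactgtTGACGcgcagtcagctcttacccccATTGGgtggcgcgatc
H2-D1: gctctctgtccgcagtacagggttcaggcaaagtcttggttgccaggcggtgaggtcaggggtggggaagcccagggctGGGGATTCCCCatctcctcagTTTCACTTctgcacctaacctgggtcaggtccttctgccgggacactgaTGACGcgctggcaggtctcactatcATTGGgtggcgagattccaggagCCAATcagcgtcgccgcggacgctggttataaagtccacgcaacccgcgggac
H2-Aa: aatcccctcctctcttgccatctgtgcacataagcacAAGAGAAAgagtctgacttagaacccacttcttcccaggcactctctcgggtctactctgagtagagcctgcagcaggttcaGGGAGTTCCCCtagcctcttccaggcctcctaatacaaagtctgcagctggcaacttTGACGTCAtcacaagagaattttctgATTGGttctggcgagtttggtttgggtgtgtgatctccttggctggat
Tap1: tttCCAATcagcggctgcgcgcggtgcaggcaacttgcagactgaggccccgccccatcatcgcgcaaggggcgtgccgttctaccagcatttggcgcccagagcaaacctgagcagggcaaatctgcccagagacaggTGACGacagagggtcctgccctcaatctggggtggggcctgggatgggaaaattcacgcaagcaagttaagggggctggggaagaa

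The windows of B2m, H2-K1, H2-D1 and H2-Aa each held a kappa B match, an IRF core match, an X2 half-site and a Y box, although 3 of these genes belong to class I and 1 to class II. In B2m they began at positions -126, -137, -78 and -53 from the start, and the IRF core of B2m was part of the only ISRE core match among the members. In H2-K1 and H2-D1 the kappa B match GGGGATTCCCC and the IRF core match TTTCACTT lay in the same order, followed by the X2 half-site and the Y box. The stretch between the RefSeq starts of Tap1 and Psmb9 held an X2 half-site and a Y box. Tapbp held Y boxes alone, and Psmb8 held a GAS match alone, TTCCCAGAA, from position -97 to -89. Cd74 and H2-Ab1 had no window, so class II rests on H2-Aa alone, and of the 2 windows of H2-K1 only 1 is printed. Of 8 members with a window searched, 4 held a kappa B match, 4 an IRF core, 1 an ISRE core, 1 a GAS element, 6 an X2 half-site and 7 a Y box. Among 32851 windows of 250 bases these motifs were found in 7.25%, 21.3%, 2.98%, 7.02%, 17.8% and 33.8%, in that order. Tap1 and Psmb9 have the same stretch, so its X2 half-site and its Y box count for both genes. The motifs were taken from MHC promoters, and the IRF core with these sequences in view. The shares are therefore a description and no test of enrichment. The kappa B and IRF core matches overlapped in none of these members, while the ISRE core contains the IRF core. A match describes letters and is not a measured binding site.

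The members spanned a wide range of levels when counts were divided by the length of their exons. In ret/wt cortex B2m, the invariant light chain of class I, stood highest at 71.6 ± 19.9 CPM per kilobase (SD, n = 4). The heavy chains H2-D1 and H2-K1, which hold the peptide, followed at 15.7 ± 6.48 and 8.02 ± 1.74 CPM per kilobase, and Tapbp, which encodes tapasin, at 7.05 ± 3.0. Cd74, the class II invariant chain that blocks the groove until peptide loading, reached 3.21 ± 0.724 CPM per kilobase. H2-Ab1, Psmb8, H2-Aa and Tap1 lay between 0.574 and 0.703 CPM per kilobase, which differ by less than the SD of Tap1 (0.271), and Psmb9 was lowest at 0.272 ± 0.129. H2-K1 and Tapbp also differed by less than their SDs. In ret/ret thalamus the first 5 genes kept this order, from B2m at 129.8 ± 35.3 to Cd74 at 8.6 ± 6.64 CPM per kilobase. The last 5 lay between 1.19 ± 0.712 (Tap1) and 2.39 ± 1.57 (Psmb8).

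**Figure D1:**
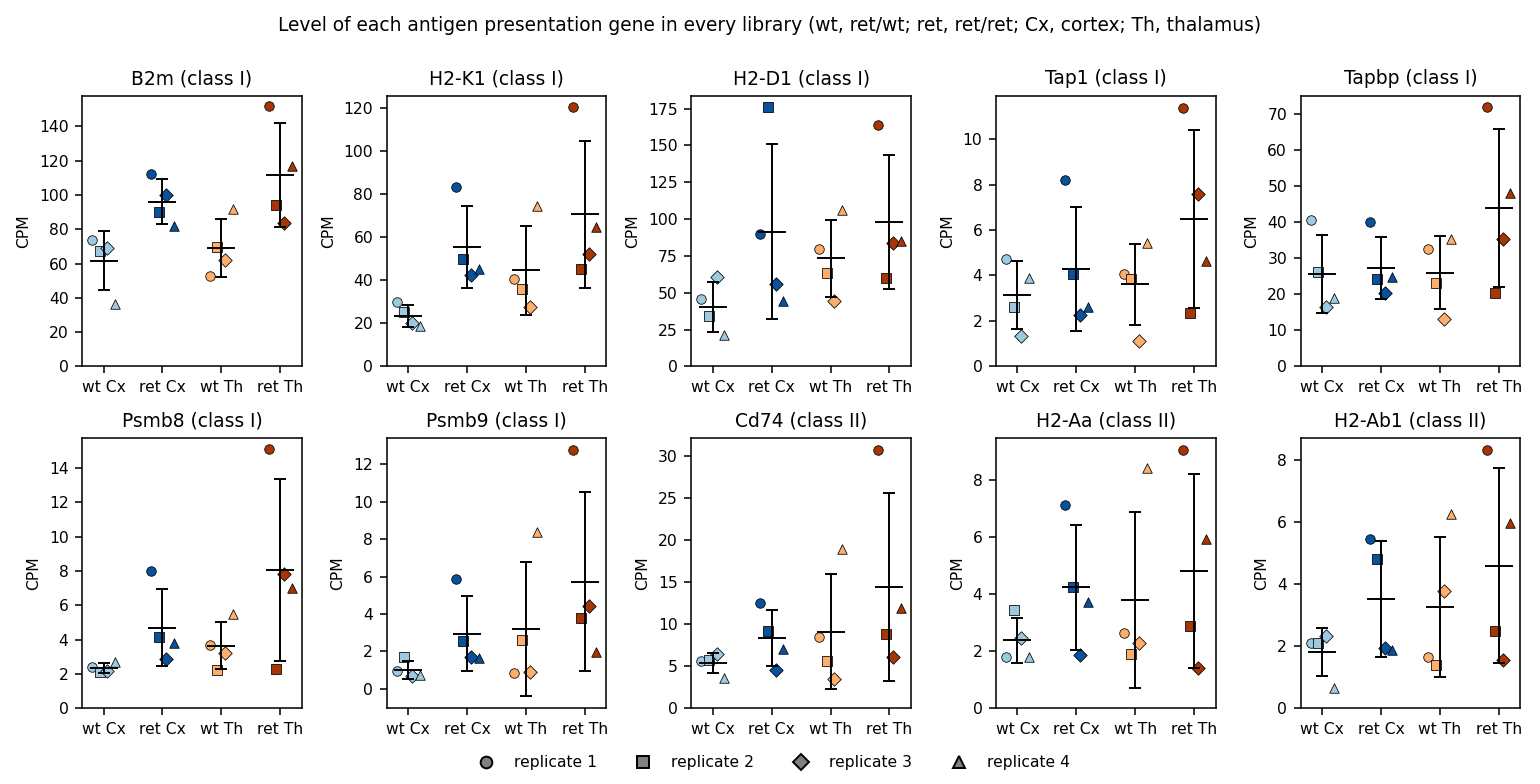
Level in CPM (y axis) of each of the 10 members in the 16 libraries, by group on the x axis; marker shapes give the replicate number within a genotype, horizontal bars the group mean and whiskers the SD (n = 4). In ret/ret thalamus replicate 1 was highest for all 10 members, from 163.9 CPM for H2-D1 to 8.33 CPM for H2-Ab1, and in ret/wt thalamus replicate 4 was highest for all 10.

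In cortex, all 10 members were higher in ret/ret than in ret/wt mice on average, and none was called. A gene is called where its Benjamini-Hochberg adjusted p from edgeR (quasi-likelihood) is below 0.05, which held for 3 of 14288 genes (0.021%). Without adjustment 5 of the 10 members, all of class I, had p under 0.05 and were higher, against 2.62% of the genes tested (3.77% in either direction). The groups did not overlap for 3 members, B2m, H2-K1 and Psmb8, against 1.58% of genes with all ret/ret libraries above all ret/wt libraries. Over all genes 51.9% had a log2 fold change above 0 and the median was 0.01, while the class I median was 1.01 and the class II median 0.85. Without ret/ret cortex replicate 1 these were 0.63, with 5 of 7 class I genes higher, and 0.48.

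H2-K1 measured 30.1, 25.2, 20.2 and 18.8 CPM in ret/wt cortex and 83.6, 49.7, 42.6 and 45.4 CPM in ret/ret cortex, replicates 1 to 4. Every ret/ret library lay above every ret/wt library, and ret/ret replicate 1 stood well above the other three. The log2 fold change was 1.25 ± 0.26 (SE), or 2.38-fold, with an unadjusted p of 0.000718 and an adjusted p of 0.476 in edgeR. DESeq2 called the gene with an adjusted p of 0.00709, the only member it called in cortex, among 39 genes called in all.

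B2m measured 73.8, 67.4, 69.0 and 36.2 CPM in ret/wt cortex and 112.2, 90.3, 100.1 and 81.9 CPM in ret/ret cortex. The groups were apart, and the low ret/wt value came from the library rich in choroid plexus genes. For B2m the log2 fold change was 0.66 ± 0.23 (adjusted p = 0.999 in edgeR), and 0.48 without that library.

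H2-D1, the other classical heavy chain, ran from 21.0 to 60.4 CPM in ret/wt cortex and from 44.4 to 175.8 CPM in ret/ret cortex, so the groups overlapped. The highest value belonged to ret/ret replicate 2, the library with cerebellar genes. The log2 fold change was 1.20 ± 0.45 with all libraries and 0.66 without it.

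The immunoproteasome subunits Psmb8 and Psmb9 replace constitutive subunits and favour cuts that suit class I grooves. Psmb8 measured 2.43, 2.12, 2.15 and 2.72 CPM in ret/wt cortex and 7.99, 4.14, 2.88 and 3.78 CPM in ret/ret cortex. The genotypes did not overlap, although the nearest libraries differed by a small margin, and the log2 fold change was 1.01 ± 0.37. Psmb9 had 0.942, 1.68, 0.66 and 0.706 CPM in ret/wt cortex and 5.88, 2.53, 1.68 and 1.63 CPM in ret/ret cortex. Only ret/wt replicate 2 reached into the ret/ret range, and the log2 fold change of 1.58 ± 0.54 was the largest among the members in cortex. Without ret/ret cortex replicate 1 the values were 0.63 for Psmb8 and 0.99 for Psmb9.

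Peptide transport and loading differed less between the genotypes in cortex. Tap1, a chain of the TAP transporter, had a mean of 4.28 ± 2.73 CPM in ret/ret cortex against 3.14 ± 1.49 CPM in controls (SD), and its log2 fold change was 0.46 ± 0.52 (SE). Tapbp averaged 27.3 ± 8.72 and 25.6 ± 10.9 CPM, with a log2 fold change of 0.11 ± 0.32. Without ret/ret cortex replicate 1 these became -0.058 for Tap1 and -0.13 for Tapbp. The Tapbp value was also below 0 without ret/wt cortex replicate 3 (-0.062) and without ret/wt cortex replicate 4 (-0.0039).

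The 3 class II genes were also higher in ret/ret cortex, with no unadjusted p under 0.05. Cd74 measured 5.65, 5.77, 6.46 and 3.64 CPM in ret/wt and 12.5, 9.16, 4.6 and 7.1 CPM in ret/ret cortex. Replicates 1, 2 and 4 of ret/ret lay above all ret/wt libraries and replicate 3 did not, and the log2 fold change was 0.65 ± 0.34. H2-Aa and H2-Ab1, the alpha and beta chains of the class II molecule I-A, had log2 fold changes of 0.85 ± 0.44 and 0.98 ± 0.52. Without ret/ret cortex replicate 1 Cd74 had 0.39 and H2-Aa 0.48. Their unadjusted p, Cd74 included, ran from 0.0826 to 0.0876 in edgeR.

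**Figure D2:**
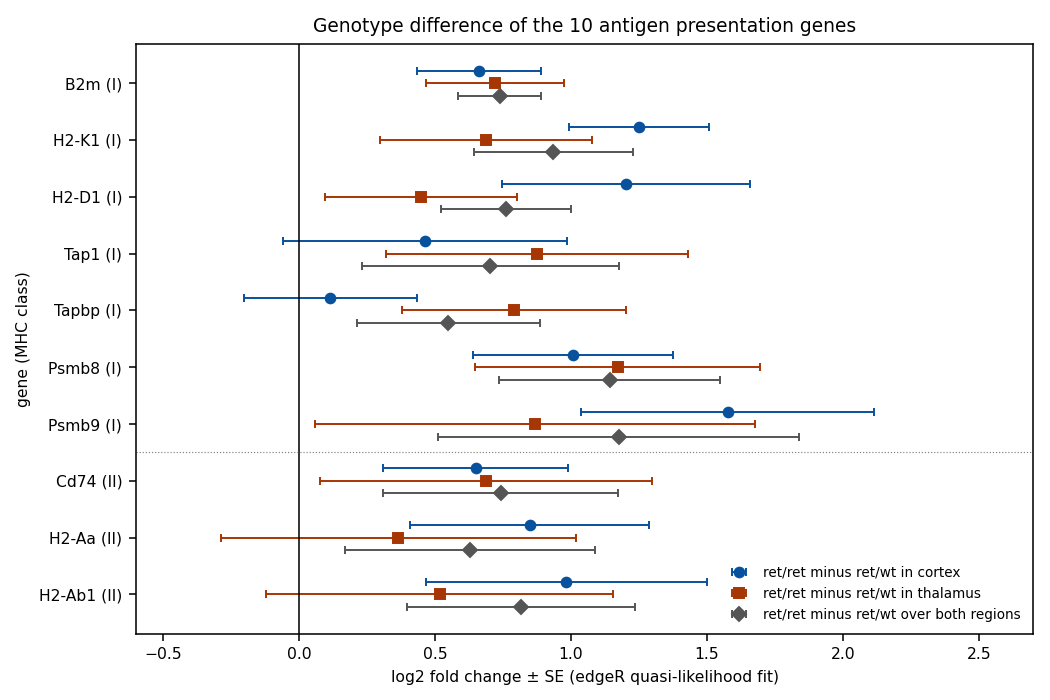
Log2 fold change of ret/ret over ret/wt (x axis) with its standard error for each member (y axis), in cortex (circles), in thalamus (squares) and for both regions summed per animal (diamonds). All 30 points lie above 0, from 0.11 for Tapbp in cortex to 1.58 for Psmb9 in cortex, and the class II genes in thalamus have standard errors of 0.61 to 0.65.

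In thalamus, where the ret/ret pieces were calcifications, all 10 members were again higher in ret/ret on average and none was called. No gene did among the 14767 tested (0%), and each member had an adjusted p of 1 in edgeR. Without adjustment 581 genes (3.93%) had p under 0.05, and DESeq2 called 38 genes, none of them a member. At an unadjusted p under 0.05, 2 members were higher, B2m and Psmb8, against 3.05% of the genes tested. No member had groups that did not overlap, against 1.7% of genes that lay wholly higher in ret/ret. Of all genes 47.1% had a log2 fold change above 0 and the median was -0.02, beside medians of 0.79 for class I and 0.52 for class II.

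B2m measured 52.5, 69.4, 62.2 and 91.9 CPM in ret/wt thalamus and 152, 93.9, 83.6 and 117 CPM in ret/ret thalamus. Only ret/wt replicate 4 reached into the ret/ret range. This gave a log2 fold change of 0.72 ± 0.25, or 1.65-fold, with an unadjusted p of 0.0175 in edgeR.

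Psmb8 measured 3.67, 2.22, 3.23 and 5.49 CPM in ret/wt and 15.1, 2.28, 7.86 and 6.99 CPM in ret/ret thalamus. Replicates 1, 3 and 4 of ret/ret lay above all ret/wt values and replicate 2 lay among the lowest. Its log2 fold change was 1.17 ± 0.52, with an unadjusted p of 0.0488, and it was 0.66 without ret/ret replicate 1.

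The heavy chains were spread wider in thalamus. H2-K1 measured 40.5, 36.1, 27.6 and 74.8 CPM in ret/wt and 120.6, 45.3, 52.3 and 64.9 CPM in ret/ret thalamus, a log2 fold change of 0.69 ± 0.39. H2-D1 ran from 44.7 to 106.3 CPM in ret/wt and from 59.7 to 163.9 CPM in ret/ret, a log2 fold change of 0.45 ± 0.35. For both genes ret/wt replicate 4 lay above 3 of the 4 ret/ret libraries. Without ret/ret replicate 1 the values were 0.29 for H2-K1 and 0.07 for H2-D1, and without ret/wt replicate 4 they were 1.09 and 0.71.

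Tapbp and Tap1 differed more in thalamus than in cortex by their point values, at 0.79 ± 0.41 and 0.88 ± 0.55, which became 0.43 and 0.44 without ret/ret replicate 1. Tapbp measured 32.5, 23.2, 13 and 35.3 CPM in ret/wt and 72.1, 20.3, 35.4 and 48.0 CPM in ret/ret thalamus. Psmb9 measured 0.82, 2.61, 0.897 and 8.4 CPM in ret/wt and 12.8, 3.76, 4.41 and 1.96 CPM in ret/ret thalamus. Its log2 fold change of 0.87 ± 0.81 became 2.05 without ret/wt replicate 4 and 0.085 without ret/ret replicate 1.

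Class II in thalamus turned on single libraries. Cd74 measured 8.46, 5.6, 3.47 and 19.0 CPM in ret/wt and 30.8, 8.9, 6.11 and 12 CPM in ret/ret thalamus. Its highest value in each genotype was far above the other 3, and the remaining ranges overlapped. The log2 fold change of 0.69 ± 0.61 became -0.013 without ret/ret replicate 1 and 1.37 without ret/wt replicate 4.

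H2-Aa measured 2.63, 1.89, 2.27 and 8.4 CPM in ret/wt and 9.04, 2.86, 1.41 and 5.94 CPM in ret/ret thalamus. Again replicate 4 of ret/wt and replicate 1 of ret/ret were the highest. The log2 fold change of 0.36 ± 0.65 became -0.15 without ret/ret replicate 1. H2-Ab1 followed the same libraries, with 6.27 and 8.33 CPM in them and 0.52 ± 0.64 as its log2 fold change, or 0.047 without ret/ret replicate 1.

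Without ret/ret thalamus replicate 1 the class I median was 0.43 and the class II median -0.013, while all 7 class I genes stayed higher. Without ret/wt thalamus replicate 4 they were 1.09 and 1.15. With both libraries left out, which was chosen after their values were seen, the medians were 0.72 and 0.63, and all 10 members were higher in ret/ret thalamus.

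The same pair of libraries was also rich in RNA of vessels and coverings. The 10 endothelial marker genes summed to 606.3 CPM in ret/ret thalamus replicate 1 and 499.5 CPM in ret/wt thalamus replicate 4, against 235.1 to 360 CPM in the other thalamus libraries. Their meningeal and fibroblast sums, given above, stand beside class II sums of 48.1 and 33.7 CPM, against 8.87 to 23.9 CPM in the other thalamus libraries. Blood genes (hemoglobins and Alas2) summed to 120.1 CPM in ret/ret thalamus replicate 1 against 5.05 to 32.3 CPM in the other thalamus libraries, with 9.63 CPM in ret/wt replicate 4. All 4 blood genes tested were higher in ret/ret, with a median log2 fold change of 1.22 in thalamus and 0.79 in cortex. In cortex too ret/ret replicate 1 had the highest blood sum, at 49.7 CPM. The other ret/ret cortex libraries had 5.6 to 24.1 CPM and the ret/wt cortex libraries 2.72 to 22.7 CPM. Apart from replicate 1, the ret/ret thalamus libraries had 11.9 to 22.4 CPM. Border macrophage markers summed to 55.68 CPM in ret/ret thalamus replicate 1 and 69.84 CPM in ret/wt thalamus replicate 4. The other thalamus libraries had 14.11 to 35.88 CPM of them. The part of these cells in the MHC levels was not tested.

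**Figure D3:**
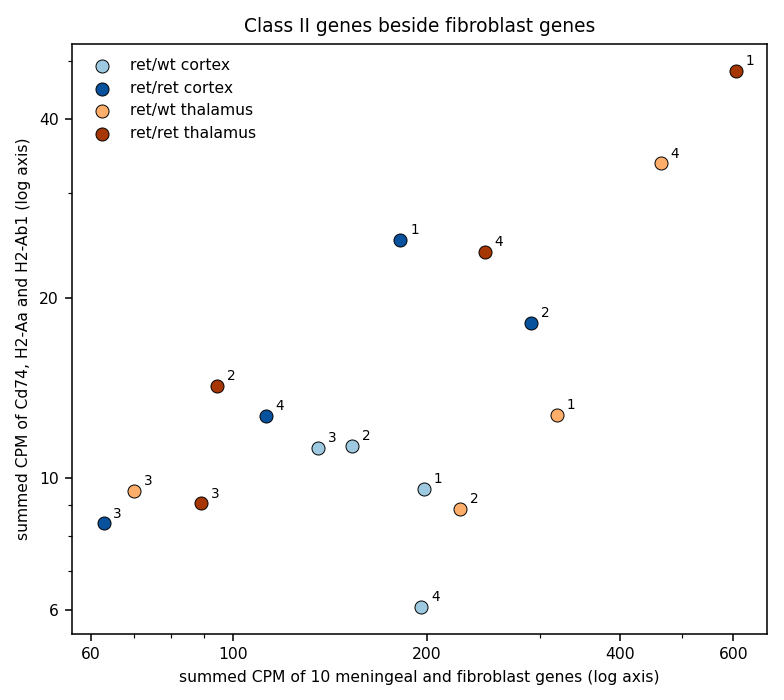
Summed CPM of Cd74, H2-Aa and H2-Ab1 (y axis, log) against the summed CPM of 10 meningeal and fibroblast marker genes (x axis, log) in each of the 16 libraries, coloured by group and numbered by replicate. The upper right corner holds ret/ret thalamus replicate 1 (604.9 and 48.1 CPM) and ret/wt thalamus replicate 4 (462.3 and 33.7 CPM), while ret/ret cortex replicate 1 has 25.1 CPM of class II at 182 CPM of fibroblast genes. Ret/wt thalamus replicate 1, next in fibroblast genes at 318.8 CPM, has 12.7 CPM of class II.

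Genes of other cell types differed with the genotype as well, and in bulk tissue more cells of a type and more RNA per cell cannot be told apart. In thalamus all 14 microglia markers were higher in ret/ret, 11 of them with unadjusted p under 0.05, against 3.05% of all genes tested. They summed to 530.7 to 719.1 CPM in ret/ret against 353.2 to 412.7 CPM in ret/wt. In cortex 13 of 14 were higher, none with p under 0.05, and the sums overlapped at 309.5 to 645.1 and 352.8 to 526.3 CPM. Endothelial markers in cortex summed to 264.3 to 492.9 CPM in ret/ret and 163.9 to 241.6 CPM in ret/wt, without overlap, and 8 of 10 were higher. The highest cortex sums of endothelial and of microglia markers, 492.9 and 645.1 CPM, both belonged to ret/ret cortex replicate 1. In thalamus all 10 endothelial markers were higher, with sums of 286 to 606.3 and 235.1 to 499.5 CPM. Border macrophage markers were the other way round, with 7 of 8 tested lower in ret/ret thalamus, 0 of them with unadjusted p under 0.05. Their sums overlapped, at 17.55 to 55.68 CPM in ret/ret and 14.11 to 69.84 CPM in ret/wt thalamus. All 10 pericyte markers were lower in ret/ret thalamus, 3 of them with unadjusted p under 0.05, against 3.93% of all genes in either direction. The part of these cell types in the MHC values was not tested.

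Lists of lymphocyte and dendritic cell genes had low sums, which overlapped between the genotypes in both regions. In thalamus the 12 B cell genes summed to 17.5 to 21.4 CPM in ret/wt and 15.9 to 40.6 CPM in ret/ret, and the 14 T and NK cell genes to 4.44 to 8.33 and 6.17 to 14.4 CPM. In cortex these sums were 6.73 to 43.9 and 27.1 to 63.5 CPM for B cells and 2.61 to 16.9 and 8.71 to 18.7 CPM for T and NK cells. Of the T and NK cell list, 9 to 11 genes were under 1 CPM in every library of a group, and of the B cell list 4 to 8. The T cell gene Cd3e was at most 0.805 CPM in any library and the B cell gene Ms4a1 at most 0.218 CPM. The highest B cell sum in thalamus, in ret/ret replicate 3, rested mostly on Pax5 (19.25 CPM) and Ighm (18.62 CPM).

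The dendritic cell list, with 11 genes in the table, summed to 28.0 to 38.9 CPM in ret/wt and 27.8 to 33.8 CPM in ret/ret thalamus, and to 22.9 to 51.9 and 16.4 to 87.8 CPM in cortex. The cortex maxima came from ret/wt replicate 3 and ret/ret replicate 2, the libraries with cerebellar genes. Flt3 had 16.97 and 36.24 CPM in them and Zbtb46 32.23 and 47.15 CPM, so these maxima rest mostly on Flt3 and Zbtb46. Of 5 genes tested in thalamus, 2 were higher, both without overlap, against 1.7% of all genes tested, and 3 lower. Among these, Itgax, which microglia and macrophages can also express, measured 0 to 0.166 CPM in ret/wt and 1.26 to 8.38 CPM in ret/ret thalamus, with the highest value in replicate 1. Itgax was chosen for mention after its values were seen. In ret/wt thalamus it lay at or below 3 counts, and it passed the filter through its ret/ret level. Its lack of overlap is therefore a description only. Xcr1 and Clec9a, genes of cross-presenting dendritic cells, were at most 0.536 and 0.887 CPM. The part of these cells in the MHC values was not tested.

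Summing both regions of an animal gave 1 value per mouse. All 10 members were higher in ret/ret, and none was called, against 2 of 15505 genes (0.0129%). At an unadjusted p under 0.05, 4 members were higher, all of class I, against 3.62% of genes (5.13% in either direction). Of all genes 46.6% had a log2 fold change above 0. For 3 members, B2m, H2-K1 and H2-D1, the genotypes did not overlap, against 2.15% of genes wholly higher.

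B2m measured 60.1, 68.7, 65.8 and 61.1 CPM in the 4 ret/wt mice and 138.2, 92.5, 93.1 and 103 CPM in the 4 ret/ret mice. The ret/wt mice lay within a narrow band and each ret/ret mouse was above it. Within a region the ret/wt values were spread wider, with SDs of 17.1 CPM in cortex and 16.8 CPM in thalamus. Ret/wt animal 4 joined the lowest cortex value, 36.2 CPM, with the highest ret/wt thalamus value, 91.9 CPM. The narrow band thus holds for the sums only, in which the deeper library of a mouse weighs more. Between the genotypes the log2 fold change was 0.74 ± 0.15, with an unadjusted p of 0.000683 and an adjusted p of 0.365 in edgeR. DESeq2 called B2m with an adjusted p of 0.00569.

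H2-K1 measured 36.9, 31.5, 23.2 and 44.0 CPM in ret/wt and 107.6, 47.8, 46.9 and 57.1 CPM in ret/ret mice. H2-D1 ran from 51.2 to 67.5 CPM in ret/wt and from 68.1 to 137 CPM in ret/ret. Both were apart by little at the nearest animals, and their log2 fold changes were 0.94 ± 0.29 and 0.76 ± 0.24.

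Psmb8 had a log2 fold change of 1.14 ± 0.41 per animal, Psmb9 of 1.18 ± 0.67, Tap1 of 0.70 ± 0.47 and Tapbp of 0.55 ± 0.34. The class II genes Cd74, H2-Aa and H2-Ab1 had 0.74 ± 0.43, 0.63 ± 0.46 and 0.82 ± 0.42, and unadjusted p from 0.081 to 0.202. Ret/ret animal 1 was the highest mouse for all 10 members, with Cd74 at 24.1 CPM against 5.25 to 9.97 CPM in the other ret/ret mice. Without that animal the class II median went from 0.74 to 0.20, and the class I median from 0.76 to 0.57. Single members then had 0.18 (Cd74), 0.20 (H2-Aa), 0.22 (Tap1 and Tapbp), 0.40 (Psmb9), 0.44 (H2-Ab1), 0.59 (H2-K1) and 0.65 (Psmb8), all still above 0.

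The genotype difference itself was not shown to differ between the regions. In the interaction of genotype and region no member was called, as was no gene of 15286 (0%), and no member had an unadjusted p under 0.05, against 1.6% of genes (0.89% with a positive difference). It was positive for 5 of 10 members and for 44.4% of genes. DESeq2 called 4 genes, none of them a member. The difference of log2 fold changes, thalamus minus cortex, was 0.05 ± 0.34 for B2m, -0.57 ± 0.48 for H2-K1 and -0.76 ± 0.61 for H2-D1. For Tapbp it was 0.66 ± 0.55, for Tap1 0.40 ± 0.80, for Psmb8 0.15 ± 0.65 and for Psmb9 -0.70 ± 1.03. The class II genes had 0.04 ± 0.74 (Cd74), -0.48 ± 0.82 (H2-Aa) and -0.46 ± 0.86 (H2-Ab1). Standard errors of this size leave room for sizeable differences in both directions.

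Between regions, all 10 members were higher in thalamus than in cortex on average, in both genotypes, against 52.2% of genes in ret/wt and 48.7% in ret/ret. These comparisons use the same libraries as those of genotype, so they are no further evidence on them. In ret/wt mice no member was called, against 12.6% of 14442 genes, and 3 members had an unadjusted p under 0.05 and were higher in thalamus, against 13% of genes (27% in either direction). These were H2-K1 with a log2 fold change of 0.95 ± 0.32 (adjusted p = 0.0801 in edgeR), H2-D1 with 0.88 ± 0.35 and Psmb9 with 1.71 ± 0.76. DESeq2 called H2-K1 with an adjusted p of 0.0337. B2m (0.18 ± 0.27), Tapbp (0.04 ± 0.36) and Tap1 (0.22 ± 0.52) lay near 0. Cd74, H2-Aa and H2-Ab1 had 0.79 ± 0.48, 0.70 ± 0.52 and 0.87 ± 0.58.

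In ret/ret mice no member was called either, against 9.5% of 14715 genes, and 0 of 10 had an unadjusted p under 0.05, against 26.7% of genes in either direction and 12.1% higher in thalamus. Psmb9 (0.98 ± 0.63), Cd74 (0.80 ± 0.51) and Psmb8 (0.79 ± 0.54) differed most, and H2-D1 (0.11 ± 0.45) least. With a block for the animal, since both regions come from the same mice, 2 class I members had an unadjusted p under 0.05 in ret/ret, and 1 in place of 3 in ret/wt. The share of all genes with such a p under the block is not reported here, so these counts are descriptions only. No member had regions that did not overlap in either genotype, against 8.18% of genes in ret/ret and 8.97% in ret/wt that lay wholly higher in thalamus. The common direction rested on few libraries. Without ret/ret thalamus replicate 1, 5 of 7 class I and 1 of 3 class II members were higher in ret/ret thalamus, and without ret/wt thalamus replicate 4, 4 of 7 and 2 of 3 were higher in ret/wt thalamus. Psmb9, Cd74 and Psmb8 then had 0.21, 0.12 and 0.29 in ret/ret, and H2-K1, Psmb9 and Cd74 had 0.56, 0.54 and 0.12 in ret/wt.

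Class I and class II were set against each other by their mean log2 CPM in each library. The class I mean (± SD, n = 4) was 3.29 ± 0.30 in ret/wt cortex, 4.11 ± 0.53 in ret/ret cortex, 3.82 ± 0.63 in ret/wt thalamus and 4.58 ± 0.72 in ret/ret thalamus. The class II mean was 1.47 ± 0.49, 2.20 ± 0.71, 2.02 ± 0.89 and 2.49 ± 1.07 in the same groups. Both classes thus had the same order of groups, and class II had the larger SD in each.

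The difference of the means, class I minus class II, was 1.82 ± 0.45 in ret/wt cortex, 1.91 ± 0.27 in ret/ret cortex, 1.80 ± 0.51 in ret/wt thalamus and 2.09 ± 0.79 in ret/ret thalamus. It ran from 1.31 to 3.25 over the 16 libraries, and the 4 ranges overlapped. The highest value was that of ret/ret thalamus replicate 3, with a class I mean of 4.53 and a class II mean of 1.28, the lowest class II level in its group. This library had 89.0 CPM of fibroblast genes and a microglia sum of 530.7 CPM, the lowest in its group. Ret/wt thalamus replicate 3, with 70.1 CPM of fibroblast genes, had a difference of 1.46. Ret/ret thalamus replicate 2, with 94.4 CPM, had 1.80. The part of cell content in the difference was not tested.

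**Figure D4:**
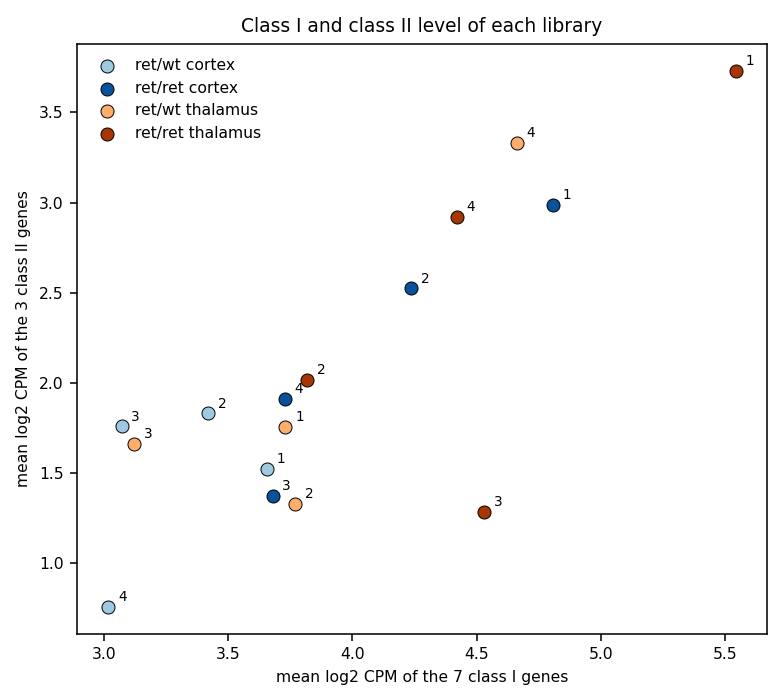
Mean log2 CPM of the 3 class II genes (y axis) against that of the 7 class I genes (x axis) in each of the 16 libraries, coloured by group and numbered by replicate. Most libraries lie along 1 band from ret/wt cortex replicate 4 (3.02 and 0.755) to ret/ret thalamus replicate 1 (5.54 and 3.73), and ret/ret thalamus replicate 3 (4.53 and 1.28) lies apart from it.

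Part of the split between heavy chains cannot be read gene by gene. In GENCODE M21 transcripts 22.8% of the words of 31 bases of H2-K1 and 26.9% of those of H2-D1 occur in other genes, 11.1% of the H2-K1 words in H2-D1. For Tapbp the share was 26.9%, mostly with Gm19412, for Psmb8 13.7%, mostly with Gm20496, and for Psmb9 and Tap1, which overlap at their starts, 4.79% and 4.09%. B2m shared none, and the class II genes shared 0.267% to 1.41%. Reads from shared words may have been assigned to either gene.

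The sum over 15 class I heavy chain genes avoids the split among those 15, but not words shared with genes outside the sum. It was 133.3, 121.4, 127.6 and 76.0 CPM in ret/wt cortex and 265.4, 299.7, 169.5 and 151.4 CPM in ret/ret cortex. Every ret/ret cortex library lay above every ret/wt one. In thalamus it was 188.8, 156.2, 120.9 and 291.2 CPM in ret/wt and 419.9, 170.2, 216.6 and 243.5 CPM in ret/ret, with overlap through ret/wt replicate 4. H2-K1 and H2-D1 made up 55.4% ± 6.04 of it in ret/wt cortex and 64.5% ± 7.83 in ret/ret cortex, where replicate 2, the library with cerebellar genes, had 75.3%. In thalamus the shares were 62.3% ± 1.81 and 63.5% ± 2.90.

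The rest of the pathway was read from lists of other heavy chains, peptide supply and loading, constitutive proteasome subunits, other class II genes and regulators. None of their genes was called for genotype, in cortex, thalamus or both. Of the other class I heavy chains, 10 of 13 tested were higher in ret/ret cortex (median log2 fold change 0.52), and 12 of 16 in ret/ret thalamus (0.36). The smallest p values in cortex belonged to genes of the Q region: H2-Q7 had 2.48 ± 0.54 in cortex (unadjusted p = 0.00101, adjusted p = 0.5 in edgeR) and 1.68 ± 0.60 in thalamus, and H2-Q4 had 1.24 ± 0.32 and 0.98 ± 0.34. H2-Q6 had 1.71 ± 0.48 in cortex. Not all Q genes were high, with H2-Q1 at 0.05 and H2-Q2 at -0.36 in thalamus, and H2-T24 of the T region had 1.28 and 1.13, names chosen after their values were seen. H2-Q7 measured 0.528 to 2.41 CPM in ret/wt cortex and 4.71 to 14.7 CPM in ret/ret cortex, without overlap. In cortex 3 of 13 other heavy chains tested were without overlap, against 1.58% of all genes. Mr1, which presents vitamin B metabolites, had 0.66 ± 0.31 in thalamus. The Q genes resemble each other, and their reads share the limit given for H2-K1.

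Peptide supply and loading stayed near the background, with 7 of 11 genes higher in cortex (median 0.14) and 4 of 11 in thalamus (-0.06). Tap2, the partner of Tap1 in the transporter, had 0.64 ± 0.30 in cortex and 0.76 ± 0.49 in thalamus. Erap1, which trims peptides in the endoplasmic reticulum, had 0.35 ± 0.28 and 0.52 ± 0.46, Pdia3 had 0.38 ± 0.20 in cortex and Calr had -0.16 ± 0.18 in thalamus.

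The constitutive subunits that Psmb8 and Psmb9 displace are Psmb5 and Psmb6, and Psmb7 is displaced by Psmb10. Unlike Psmb8 and Psmb9, Psmb10 was not higher in ret/ret. It averaged 28.2 ± 9.02 CPM in ret/wt and 27.2 ± 5.94 CPM in ret/ret cortex (SD), and its log2 fold change in thalamus was -0.04 ± 0.31 (SE). Psmb5, Psmb6 and Psmb7 had log2 fold changes of 0.06, 0.04 and 0.02 in cortex and -0.13, -0.14 and -0.10 in thalamus, all smaller than their standard errors of 0.15 to 0.29.

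Of other class II genes, 6 of 8 were higher in cortex (median 0.11) and 8 of 10 in thalamus (0.27). Ctss, the protease that clears the invariant chain from class II, measured 51.5 to 74.8 CPM in ret/wt and 81.4 to 127.9 CPM in ret/ret thalamus. These did not overlap, with a log2 fold change of 0.72 ± 0.20 and an unadjusted p of 0.00444 (adjusted p = 0.932 in edgeR). Ctss was the only 1 of 10 other class II genes tested in thalamus without overlap, against 1.7% of all genes. H2-DMb1 and H2-DMa, which edit class II peptides, had 0.82 ± 0.55 and 0.54 ± 0.38 in thalamus. In cortex H2-Eb1 had 0.70 ± 0.33, Ctss 0.35 ± 0.24 and the costimulator Cd86 0.33 ± 0.37.

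Among regulators of MHC transcription, 15 of 23 were higher in cortex (median 0.09) and 16 of 23 in thalamus (0.16). Nlrc5, the transactivator of class I genes, had 1.58 ± 0.58 in cortex, at 0.292 to 1.41 and 1.31 to 3.78 CPM. In thalamus Irf8, a transcription factor of myeloid cells, had 1.69 ± 0.58, at 2.21 to 3.3 and 2.37 to 20.1 CPM, and Rfxank, a subunit of the RFX complex that binds the X box, had 0.54 ± 0.25. The interferon receptor chain Ifnar2 had 0.39 ± 0.22 in cortex and 0.47 ± 0.22 in thalamus. Ciita, the class II transactivator, was not analysed here.

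**Figure D5:**
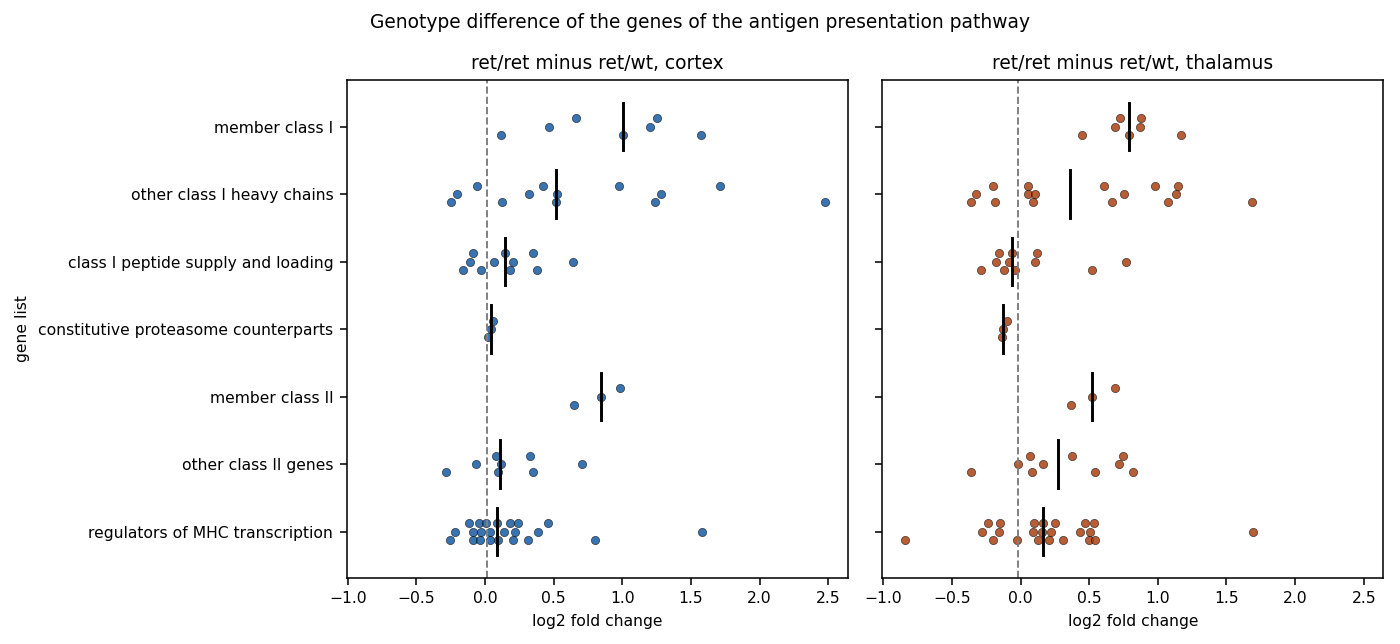
Log2 fold change of ret/ret over ret/wt (x axis) for the genes of each list (y axis) in cortex (left) and thalamus (right); points are genes, black bars list medians and the dashed line the median of all genes tested. The class I members have medians of 1.01 and 0.79 and the class II members 0.85 and 0.52, while the 3 constitutive proteasome subunits lie between -0.14 and 0.06.

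Per animal over both regions the heavy chains with the smallest p were H2-Q7 with 2.03 ± 0.51, H2-Q6 with 1.40 ± 0.41 and H2-Q4 with 1.11 ± 0.27, all without overlap. They were the only 3 of 17 other heavy chains tested without overlap, against 2.15% of all genes. Tap2 had 0.69 ± 0.37, Ctss 0.57 ± 0.18, Nlrc5 0.94 ± 0.40 without overlap, and Ifnar2 0.42 ± 0.18. Nlrc5 was the only 1 of 23 regulators tested without overlap, against the same 2.15% of all genes. In the interaction Irf8 had 1.21 ± 0.82 and Ctss 0.35 ± 0.31.

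Between regions, 1 of 10 other class II genes and 3 of 23 regulators were called in ret/ret, and 1 of 15 other heavy chains and 2 of 23 regulators in ret/wt. No gene of the other lists was, so that these counts stand near or below the 9.5% and 12.6% of all genes. In ret/ret mice Lgmn, a lysosomal protease of antigen processing, rose by 0.66 ± 0.14 in thalamus over cortex (adjusted p = 0.022 in edgeR), as did Rfxank by 0.80 ± 0.22 (0.0482) and the kappa B factor gene Nfkb1 by 0.68 ± 0.19 (0.0498). Nfyb, a subunit of the NF-Y factor that binds the Y box, was lower in thalamus in both genotypes, at -1.07 ± 0.18 in ret/ret (adjusted p = 0.00872) and -0.99 ± 0.24 in ret/wt (0.0234). Nfya fell in ret/wt thalamus at -1.02 ± 0.25 (0.0249). The heavy chain H2-Q2 was called as higher there, at 2.27 to 5.04 CPM against 0 to 0.471 CPM in ret/wt cortex. As 1 cortex library was at 0 and the gene passed the filter through its thalamus level, no fold is given.

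Genes that followed B2m and Cd74 most closely over the 16 libraries were sought among 15276 genes by the root mean square distance of log2 CPM, each gene centred on its own mean. For B2m, whose own spread was 0.474, these were Esam (0.19), Irgm1 (0.212), Nat8f3 (0.23), Igfbp7 (0.234) and Casp8 (0.261). Esam and Igfbp7 are expressed in endothelium and Irgm1 is an interferon-induced GTPase. Among the members H2-K1 was nearest to B2m, at 0.406. For Cd74, with a spread of 0.806, they included H2-Eb1 (0.309), another class II chain, Cavin1 (0.318), Ifitm3 (0.347) and Lyz2 (0.382). Among the members H2-Aa (0.405) and H2-K1 (0.412) were nearest to Cd74 and Psmb9 (0.773) was farthest. These distances also hold what libraries share, such as their depth and the tissue in them.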

How the data were processed

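Gene-level values from polyA-selected, stranded libraries of 16 samples were analysed. The authors deposited expected counts (estimated reads per Ensembl gene), and 100% of nonzero values were not whole; they were rounded. The submitters' processing notes name kallisto 0.44.0 and GRCm38.p6. The annotation release and the step from transcripts to genes are not given in the sources used here. Totals ran from 13415391 to 29135064 counts, and no 2 columns were identical. Symbols came from GENCODE M21 for 21581 genes (99%).

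In R 4.3.3 genes were kept by filterByExpr (minimum count 10, minimum total 15), scaled by TMM, and tested with edgeR 4.0.16 (quasi-likelihood, Benjamini-Hochberg over all genes, threshold 0.05). Each comparison of 2 groups used its own 8 libraries, the interaction all 16, and the genotype comparison over both regions counts summed per animal. Standard errors came from the F statistic. Alternatives were DESeq2 1.42.0, its size factors, no filter, all libraries in 1 fit, limma 3.58.1 on means per animal, leaving out libraries and a block for the animal. Class means used log2 CPM with a prior count of 1. The code was tested on simulated data. Figures used matplotlib 3.10.9. Values without a test are descriptions, and floors cover counting error only.

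The members, lists, markers and motifs were chosen with earlier results of these data known, and the IRF core with the promoter sequences in view. Named pathway genes were those called in a comparison or, in lists with none, the 3 with the smallest p; some of these, and some other genes, are not reported here. Cortex and thalamus of an animal share an animal identifier in the labels. Residuals of the pairs correlated at 0.0746 on average over 8 animals (-0.0171 to 0.239). RefSeq promoter windows were matched for 8 of 10 members. Of 236 list entries, 9 were not analysed here.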

Additional observations from a re-analysis of the deposited data

Results flagged for a closer look

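Of 40 gene and group sets of 4 libraries, 3 had a library whose gap to the nearest other exceeded Dixon's critical value, and chance gives about 1 in 20. B2m in ret/wt cortex replicate 4 was 36.2 CPM, below the other 3 at 67.4 to 73.8 CPM. H2-Ab1 in the same library was 0.652 CPM, below 2.12 to 2.33 CPM in the others. This library held 1170 CPM of choroid plexus genes, and whether the low values relate to it was not tested. H2-Aa in ret/wt thalamus replicate 4 was 8.4 CPM, above 1.89 to 2.63 CPM in the others.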

How the results depend on the processing

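With 4 animals per group, standard errors of the members reached 1.03 on the log2 scale. The lowest count of a member in a library was 12.

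DESeq2 called more genes than edgeR: 38 (edgeR 0) for genotype in thalamus, 39 (3) in cortex, 2591 (1398) between regions in ret/ret, 4 (0) for the interaction and 80 (2) over both regions. It called 1 member each in cortex (H2-K1), between regions in ret/wt (H2-K1) and over both regions (B2m). In 1 fit of all libraries, 3 genes were called in thalamus and 7 in cortex. Without ret/wt animal 3 and ret/ret animal 2, 1 gene was called in cortex, 2564 between regions in ret/ret and 0 over both regions. In that setting 1 member was called between regions in ret/wt (H2-D1, adjusted p = 0.0449 in edgeR), and the interaction of Cd74 was -0.10. Without the 2 thalamus libraries richest in fibroblast genes the interaction of Psmb8 was -0.073.

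Leaving out 1 library or animal at a time gave 0 to 2 genes called in cortex, 627 to 2007 between regions in ret/ret, 1178 to 1797 in ret/wt and 1 to 2 over both regions. Members called between regions in ret/wt were 0 to 1 (H2-K1 without ret/wt thalamus replicate 3, adjusted p = 0.0456 in edgeR). Log2 fold changes that crossed 0 ranged as follows. For genotype in thalamus, Cd74 ran from -0.013 to 1.37 and H2-Aa from -0.15 to 1.15. For genotype in cortex, Tap1 ran from -0.058 to 0.72 and Tapbp from -0.13 to 0.43. Between regions in ret/ret, H2-K1 ran from -0.027 to 0.66, H2-D1 from -0.26 to 0.66, H2-Aa from -0.31 to 0.59 and H2-Ab1 from -0.067 to 0.71. Between regions in ret/wt, B2m ran from -0.0066 to 0.30, Tap1 from -0.055 to 0.52, Tapbp from -0.16 to 0.35 and H2-Aa from -0.067 to 0.93. In the interaction, B2m ran from -0.15 to 0.41, Cd74 from -0.40 to 0.82, Psmb8 from -0.0059 to 0.42, Psmb9 from -1.15 to 0.57, H2-Aa from -0.93 to 0.37 and H2-Ab1 from -0.82 to 0.34. Over both regions no member crossed 0 in the 13 alternatives. Where no value above shows a cause, the cause was not tested.

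The replicate block for the animal gave 1177 genes called between regions in ret/ret, 1487 in ret/wt and 0 for the interaction, and called 0 members. It changed no call of a member, while it moved the members with an unadjusted p under 0.05 from 0 to 2 in ret/ret and from 3 to 1 in ret/wt. As the share of all genes under the block is not reported here, these moves are descriptions only.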
